A study of Mus musculus with 12 samples.

Results

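The effect of transforming growth factor β (TGFβ) was estimated over all 12 libraries of a study of mouse kidney tubule cells, 6 from cells given TGFβ and 6 from untreated cells, with the construct the cells carried as an additive term. Every library of the series entered, so 12 of 12 were used, and the members described are all 12897 genes that passed the filter on low counts. Before treatment the cells, conditionally immortalised mouse tubular epithelial cells (im_TEC) that carry the SV40 large T antigen, were expanded at 33 °C in the presence of interferon γ and then held at 37 °C without it for 7 days. Their construct, under puromycin selection, was either mock or, by its label, one for expressing Nnmt, nicotinamide N-methyltransferase (Nnmt-OE), and the cells were left untreated or given TGFβ at 10 ng/mL for 48 h. Each of the 4 groups had 3 libraries: mock, mock with TGFβ, Nnmt-OE and Nnmt-OE with TGFβ. All 4 groups thus shared the SV40 antigen, the shift in temperature and a selected construct. Nothing in the labels tells separate cultures from repeat libraries of 1 culture, so the spread that p-values rest on may be technical. RNA was sequenced from the 3' end (QuantSeq), about 1 tag for each transcript, and levels are given as CPM, counts scaled to the size of the library.

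TGFβ binds a pair of receptor kinases that phosphorylate SMAD2 and SMAD3, which enter the nucleus with SMAD4 and act on genes of matrix, cytoskeleton and feedback. It is the cytokine most often used in culture to bring on the partial loss of epithelial traits and the gain of contractile and matrix genes seen in kidney fibrosis. A design of this kind can be read for each construct alone, 3 libraries against 3, or for the treatment over both constructs, 6 against 6. The second reading takes the effect to be the same in both constructs, and the interaction term, the difference between the 2 effects, measures departures from that.

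Reads assigned to genes numbered 4733846 to 6753611 in untreated libraries and 4845677 to 7247413 in TGFβ libraries, and reads outside genes 27.32 to 28.79% and 26.4 to 27.92%. On the first principal component (21% of the variance) the TGFβ libraries lay from 4.3 to 13.3 and the untreated libraries from -24.6 to -2.6. The first mock library and the TGFβ-treated replicate 3 of each construct lay apart from the rest of their groups on more than 1 of the first 4 components. Without these 3 libraries 732 genes passed in the pooled test, 526 of them among the 668 called with all libraries. Nnmt itself was at 17.82, 23.67 and 28.46 CPM (lowest, median and highest) in untreated libraries and at 22.5, 28.8 and 33.88 CPM with TGFβ, a log2 difference of 0.35 ± 0.15 (SE) that was not called (edgeR adjusted p = 0.216). By construct it was at 24.69, 17.82 and 18.3 CPM in mock and at 24.48, 28.46 and 22.86 CPM in Nnmt-OE, and with TGFβ at 33.34, 29.66 and 27.93 CPM in mock and at 33.88, 22.5 and 26.27 CPM in Nnmt-OE. The libraries of the 2 constructs overlapped in both treatments, and over all 12 the log2 difference of Nnmt-OE from mock was 0.08 ± 0.15 (edgeR adjusted p = 0.966), so no higher Nnmt level was detected in the libraries labelled Nnmt-OE. Tags from the 3' end need not see the construct's transcript, so this level does not check the label either way. Of 15 tubular markers, those present included Pax2, Pax8, Cdh16, Krt8, Aqp1 and Lrp2, while Epcam, Cdh1, Hnf4a and Umod had no read in any library and Lhx1, Krt18, Cubn and Slc34a1 were under 1 CPM. Among 12 markers of fibroblasts and pericytes, Lum, Col3a1, Rgs5, Pi16, Dpt and Thy1 had no read, and 7 of 12 leukocyte and 5 of 12 endothelial markers had none.

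Over both constructs, TGFβ raised 331 genes and lowered 337, in all 668 of 12897 tested (5.18%; 2.57% higher and 2.61% lower; edgeR quasi-likelihood test, Benjamini-Hochberg adjusted p under 0.05). Rises and falls were ranked among genes at 10 CPM or more with no overlap within either construct. There the 12 with the greatest rises included genes for contractile proteins (Acta2, Tagln) and a matrix protein (Postn). The 12 with the greatest falls included a methyltransferase (Inmt), sciellin (Scel), a clearance receptor (Mertk), the matrix proteins Abi3bp and Sned1, angiotensinogen (Agt) and a glutathione transferase (Gstm1). For 401 genes (3.11%), the 6 TGFβ libraries did not overlap the 6 untreated ones, 189 of them higher and 212 lower. Protein-coding genes made up 630 of the 668.

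The same libraries split by construct gave 184 genes in mock (1.43%; 86 higher, 0.667%, and 98 lower, 0.76%) and 180 in Nnmt-OE (1.4%; 84 higher, 0.651%, and 96 lower, 0.744%). The pooled test shares its libraries with both, so the 3 counts are not independent. By DESeq2 the within-construct counts were 306 and 295. The mock count was 115 without mock with TGFβ replicate 1 and 98 without its replicate 2. The Nnmt-OE count was 109 and 97 without Nnmt-OE replicate 1 or 3, and 104, 99 and 104 without Nnmt-OE with TGFβ replicate 1, 2 or 3. It was 305 without mock replicate 1, which enters that contrast only through the shared filter, scaling and dispersion.

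What the larger sample added was mostly small changes. Of the 668 genes, 415 (3.22% of genes tested) were called in neither construct alone, 215 higher and 200 lower, and these made up 62.1% of the pooled calls. Their median change was 1.29-fold, 337 of them (81.2%) changed by less than 1.5-fold, and 25 changed by 2-fold or more. Another 90 genes were called in both constructs and in the pooled test, with a median change of 1.6-fold. The 81 called with mock only and the 82 called with Nnmt-OE only had medians of 1.36-fold and 1.35-fold. The smallest change called was 1.12-fold in the pooled test, against 1.21-fold in mock and 1.23-fold in Nnmt-OE. By size, 187 pooled calls were at 1.25-fold or less, 306 from there to 1.5-fold, 121 from there to 2-fold and 54 at 2-fold or more, where mock had 2, 82, 67 and 33 and Nnmt-OE had 1, 83, 67 and 29. A test against a change of 1.2-fold rather than none left 96 pooled calls, 37 of them in neither construct alone.

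**Figure D1:**
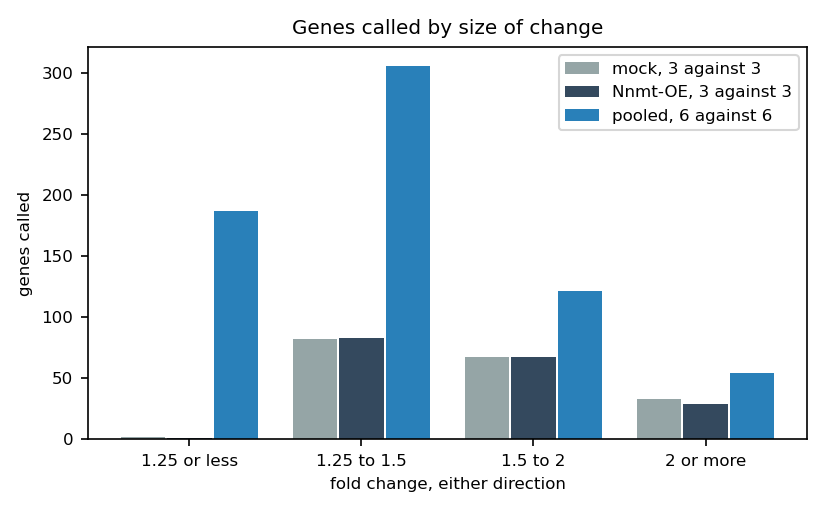
Number of genes called (y axis) by the size of the fold change in either direction (x axis), for TGFβ in mock (grey), in Nnmt-OE (dark) and pooled (blue). The pooled bars are the tallest in every class, and at 1.25-fold or less they hold 187 genes against 2 and 1.

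Intervals were narrower in the pooled test. For the 9126 genes at 10 CPM or more, the median width of the 95% interval on either side of the log2 fold change was 0.25 in the pooled test and 0.35 in each construct, and the median SE was 0.122 against 0.173. The share of genes called also rose with the level: 0.635% under 3 CPM, 1.09% from 3 to 10, 3.09% from 10 to 30, 6.07% from 30 to 100 and 14.2% at 100 or more. Under 3 CPM the median interval reached 1.31 on either side, so changes below that size were mostly not detectable at this depth. The shares called in gene lists, given below, are to be read beside the 5.18% called over all genes and were not matched for level. A list of abundant genes can exceed that share through its level alone. The lists were also chosen with earlier results of these data known, so their shares are descriptions and no test.

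None of the 415 genes passed the adjusted threshold within a construct. In 281 of them (67.7%) the unadjusted p was under 0.05 in each construct, a weaker standard than the adjusted one, and none of the 415 had an unadjusted interaction p under 0.05. All 415 moved the same way in both constructs. In 145 of them the 6 TGFβ libraries did not overlap the 6 untreated ones. Choosing genes called in the pooled test and in neither construct favours each of these counts, the absence of low interaction p-values included. They are thus descriptions and no test of equal effects.

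No gene was called for the interaction (0 of 12897, 0.0%; edgeR), and DESeq2 and limma-voom also called 0. At an unadjusted p under 0.05 the counts were 501 by edgeR, 561 by DESeq2 and 516 by limma-voom. Each is less than a share of 0.05 of the 12897 genes, the share that this threshold would pass with no interaction at all. These counts do not show equal effects, because the interaction is estimated less precisely than the pooled effect. Its SE was 0.253 for Acta2 and 0.128 for Gstm1, against 0.131 and 0.064 in the pooled test. The 2 within-construct contrasts share no library, so each can be set beside the other. Of the 184 genes called in mock, 181 (98.4%) had the same sign in Nnmt-OE and 90 (48.9%) were called there, and their median log2 change was 0.64 in mock and 0.47 in Nnmt-OE. Of the 180 called in Nnmt-OE, 176 (97.8%) had the same sign in mock and 90 (50%) were called, with medians of 0.6 in Nnmt-OE and 0.49 in mock. In 72.8% and 77.8% of these genes the change was smaller in the construct that had not chosen them. Across all 12897 genes, 61.1% had the same sign in both constructs (Pearson r = 0.23, Spearman rho = 0.26), and at 10 CPM or more 63.4% (r = 0.44, rho = 0.38). These are descriptions across genes, which are not independent replicates.

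**Figure D2:**
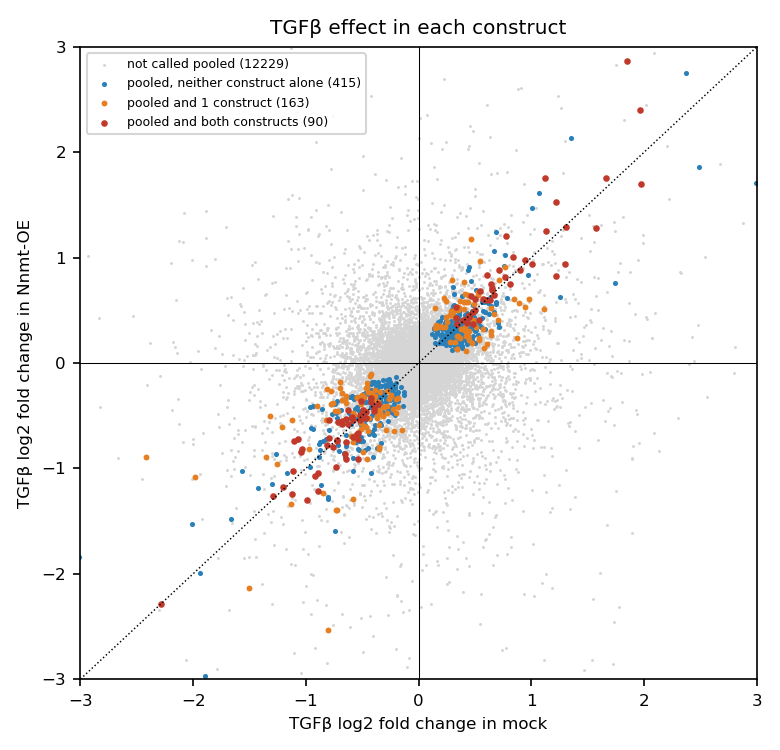
Log2 fold change with TGFβ in mock (x axis) against that in Nnmt-OE (y axis) for each gene tested, with 36 genes beyond the axes not drawn and the dotted line marking equal change. Genes called in the pooled test lie in the quadrants of equal sign, and the 415 called only there (blue) fill the space nearer to 0 than the 90 called in both constructs (red).

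Pooling lost few genes. In all, 13 genes called in mock and 8 called in Nnmt-OE were not called in the pooled test. Each of these 21 had an unadjusted interaction p under 0.05, which choosing genes called in 1 construct and not pooled favours. The 5 with the smallest within-construct adjusted p were Ccnl2, Fancd2, Arntl, Rpl38 and Ncapg, all called in mock. Arntl (Bmal1), a core clock activator, was at 6.573, 10.82 and 8.988 CPM in mock and at 13.73, 17.93 and 30.23 CPM in mock with TGFβ. In Nnmt-OE it was at 17.87, 16.14 and 16.28 CPM, and with TGFβ at 13.55, 14.88 and 9.174 CPM. Its log2 change was thus 1.23 in mock and -0.41 in Nnmt-OE, and the pooled value of 0.40 ± 0.26 was not called (edgeR adjusted p = 0.496). Fancd2, of the interstrand crosslink repair pathway, had log2 changes of 0.97 in mock and 0.09 in Nnmt-OE, and Ncapg, a condensin subunit, of 0.52 and 0.01.

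The construct term changed some calls. Without it 628 genes were called, 623 of them among the 668. Trib1, a pseudokinase that guides C/EBPα to degradation, was at 64.84, 83.99 and 67.82 CPM in mock and at 114, 134.2 and 127.5 CPM in Nnmt-OE. With TGFβ it was at 59.26, 69.79 and 65.76 CPM in mock and at 76.36, 84.29 and 80.9 CPM in Nnmt-OE, so that the treated and untreated libraries overlapped over both constructs but not within Nnmt-OE. It fell by 0.40 on the log2 scale with the construct term (edgeR adjusted p = 0.00768) and was not called without it (0.233). The log2 change of Trib1 was -0.15 in mock (edgeR adjusted p = 0.727) and -0.64 in Nnmt-OE (0.00265). Its interaction p by edgeR was 0.0104 unadjusted and 0.999 adjusted. Ccn1, a matricellular protein and YAP target, rose by 0.43 ± 0.06 (edgeR adjusted p = 6.46e-07), and without the term its adjusted p was 0.0632.

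Members of the TGFβ pathway itself moved in both directions. Among 15 measured ligands, receptors and latency proteins 4 rose and 2 fell (40.0% called, against 5.18% of all genes), and 3 of these 6 were called in neither construct alone. Inhba, which encodes the subunit of activin A, had untreated levels of 63.42, 70.22 and 77.6 CPM (lowest, median, highest) and 110.7, 118.5 and 144.9 CPM with TGFβ. The arms did not overlap, and it rose by 0.79 ± 0.08 on the log2 scale (edgeR adjusted p = 5.21e-09). Tgfb2, a TGFβ ligand, was at 188.1, 204.9 and 215.8 CPM untreated and 226.7, 254.7 and 263.8 CPM with TGFβ. Its arms did not overlap either, and the rise of 0.31 ± 0.06 passed in the pooled test (edgeR adjusted p = 0.00144) but not in mock (0.062) or in Nnmt-OE (0.12). Follistatin (Fst), which binds activins, rose by 0.45 ± 0.10, and Ltbp1, which tethers latent TGFβ to the matrix, by 0.73 ± 0.17. Ltbp3, another latency protein, fell by 0.54 ± 0.08 and the co-receptor Tgfbr3 (betaglycan) fell by 0.68 ± 0.16.

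Of 14 SMADs and feedback genes, 2 rose and 1 fell (21.4%). Pmepa1, which sequesters receptor-regulated SMADs, was at 117.8, 136.6 and 158.6 CPM untreated and at 237.2, 273.1 and 304.1 CPM with TGFβ. Its arms did not overlap, and it rose by 0.97 ± 0.07 (edgeR adjusted p = 9.68e-14). Smad3 fell by 0.40 ± 0.08 (edgeR adjusted p = 0.00133), with arms that overlapped. In the list of Id genes and the BMP pathway, 17 were tested, none rose and 2 fell (11.8%). These were Id2, from a median of 533 to 362.1 CPM, and Id4, from 46.7 to 25.47 CPM, both inhibitors of basic helix-loop-helix factors.

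**Figure D3:**
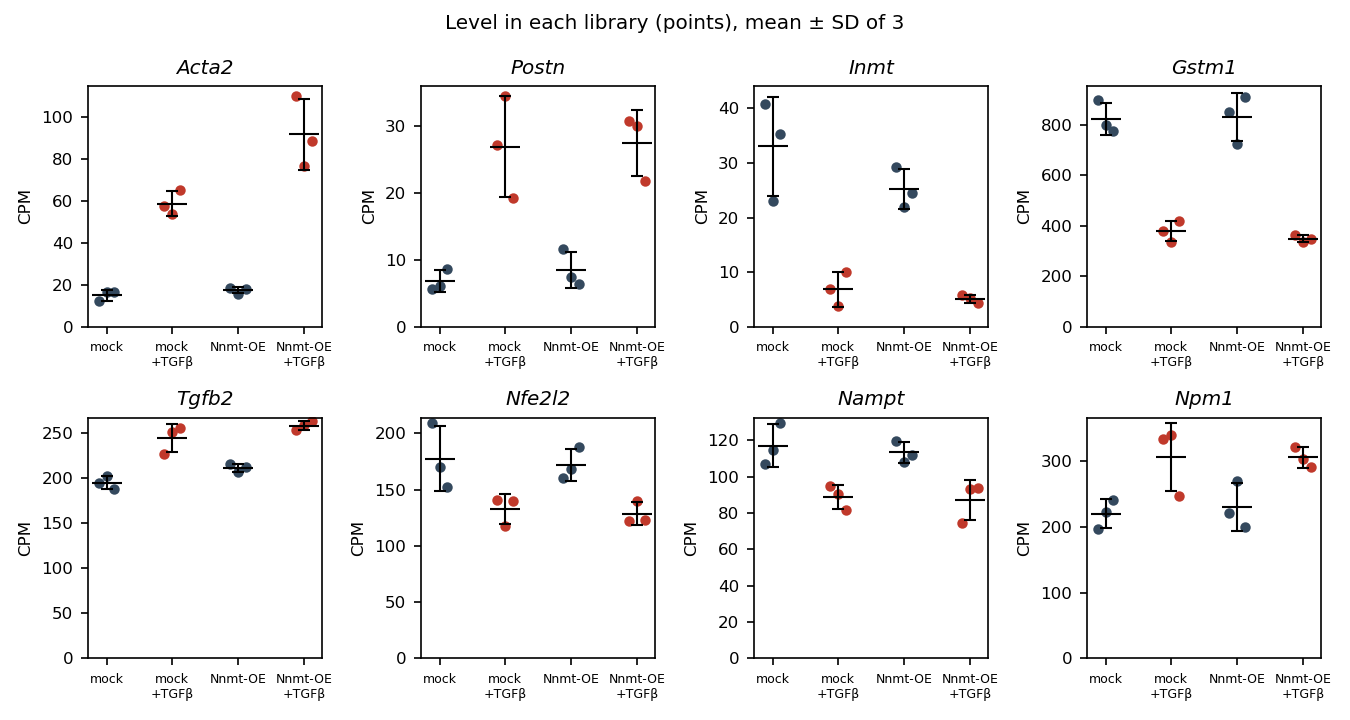
CPM (y axis, from 0) of 8 genes in each library (points) of the 4 groups, with the mean ± SD of 3 libraries. Acta2, Postn, Inmt and Gstm1 are separated by a gap between untreated (dark) and TGFβ (red) libraries, whereas Tgfb2, Nfe2l2 and Nampt, called only in the pooled test, show narrow gaps of the same sign in both constructs, and for Npm1 1 untreated library lies above 1 TGFβ library.

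Contractile and cytoskeletal genes rose in larger number. Of 32 measured, 11 rose and 1 fell (37.5% called), 28 of 32 had a positive log2 fold change, and the median was 0.18, against -0.005 over all genes. Acta2, smooth muscle α-actin and the usual marker of myofibroblasts, was at 12.08, 16.5 and 18.4 CPM untreated and at 53.66, 70.86 and 109.7 CPM with TGFβ. Every TGFβ library was above every untreated one, with a log2 rise of 2.19 ± 0.13 (edgeR adjusted p = 3.28e-16). Tagln (SM22), an actin-binding protein, rose from a median of 69.62 to 189.5 CPM, by 1.44 ± 0.10. Its rise was 1.12 in mock and 1.76 in Nnmt-OE, a difference of 0.64 with an unadjusted interaction p of 0.000591 that did not survive adjustment (edgeR adjusted p = 0.999). Tnnt2, a troponin T, rose by 1.02 ± 0.15, the crosslinker Actn1 by 0.59 ± 0.05, Tagln2 by 0.43 ± 0.06 and tropomyosin Tpm1 by 0.38 ± 0.05. Cnn2 (calponin 2), Zyx (zyxin), Actn4 and Tpm4 were the 4 called in neither construct alone, with rises of 0.34, 0.30, 0.20 and 0.23. Actn4 was at 951.4, 1034 and 1096 CPM untreated and at 1168, 1186 and 1213 CPM with TGFβ, so that a rise of 0.20 ± 0.05 still left no overlap (edgeR adjusted p = 0.01). Mylk, myosin light chain kinase, went the other way, from 327.7, 374.4 and 442.3 CPM to 225.5, 240 and 283.4 CPM, and fell by 0.61 ± 0.07 (edgeR adjusted p = 7.23e-09). Reads of actin genes can be hard to assign between near-identical copies, and how the authors counted them is not given in the sources used here.

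Serum response factor binds the CArG box and is a known activator of contractile genes, so promoters of the called genes were searched for it. RefSeq promoter entries (GRCm38.p6, 250 bases before to 50 after the start) were found for 257 of the 331 genes that rose and 258 of the 337 that fell. A CArG box was in 9 of the 257 (3.5%) and in none of the 258, against 1.58% of 8961 tested genes with an entry and 1.81% of all 27025 genes in the table. These shares are descriptions, and the 9 genes were picked out after their values were seen. Of the 10 contractile genes that rose and had an entry, 1 (Cnn2) held a box. Another 6 motifs were searched, on both strands. The E-box CACGTG was in 16.3% of the genes that rose and 10.1% of those that fell, against 11.9% of tested genes. The AP-1 site TGANTCA was in 5.06% and 8.53% (5.88% of tested genes), the TEAD site GGAATG in 14.4% and 16.3% (14.1%) and the BMP SMAD site GGCGCC in 29.6% and 24.4% (25.4%). The SMAD palindrome GTCTAGAC was in 0 of the 257 and 1 of the 258 (0.312% of tested genes), and the paired CAGA element CAGACAGAC in 2 and 2 (0.67%). The 9 genes were Acta1, Fhl2, Cnn2, Filip1l, Gsto1, Glipr2, Myadm, Ergic1 and Kif20b. Fhl2 also had a box in another promoter entry, which is not shown. Windows of 60 bases are shown for 4 of the 9 genes, to place the box, in capitals, in its promoter.
Acta1: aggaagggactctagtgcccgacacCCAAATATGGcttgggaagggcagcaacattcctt
Fhl2: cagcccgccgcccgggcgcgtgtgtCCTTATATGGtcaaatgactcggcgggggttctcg
Cnn2: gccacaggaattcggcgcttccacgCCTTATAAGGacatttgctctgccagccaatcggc
Filip1l: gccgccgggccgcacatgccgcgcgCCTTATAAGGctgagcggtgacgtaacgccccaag
On GRCm38.p6 these are chr8:123894814-123894873 (minus strand) for Acta1, chr1:43163958-43164017 (minus) for Fhl2, chr10:79988519-79988578 (plus) for Cnn2 and chr16:57549155-57549214 (plus) for Filip1l. Acta1, skeletal α-actin, rose from a mean of 1.90 to 9.45 CPM, and Fhl2, a LIM-domain partner of serum response factor, from 42.3 to 59.8 CPM (log2 0.50 ± 0.10, edgeR adjusted p = 0.00135). Fhl2 was called in neither construct alone. Cnn2 rose from a mean of 156.0 to 197.7 CPM and Filip1l, a filamin-interacting protein, from 141.7 to 172.6 CPM. Acta2 has an entry, and no box of the letters searched (CC, then 6 bases of A or T, then GG) lies in its window. Boxes that depart from these letters were not searched for, in Acta2 or in any other gene.

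Fibrillar matrix genes were called only when both constructs were pooled. Among 18 fibrillar collagens and their processing enzymes, 3 rose and 1 fell in the pooled test (22.2%) and none was called in either construct alone. Col1a1, the α1 chain of type I collagen, was at 1.027, 4.381 and 5.539 CPM untreated and at 6.894, 9.297 and 13.5 CPM with TGFβ. Its arms did not overlap, and it rose by 1.34 ± 0.34 on the log2 scale (edgeR adjusted p = 0.0113). Col1a2 was at 0, 0.1625 and 1.798 CPM untreated and at 1.043, 1.44 and 6.025 CPM with TGFβ. The arms overlapped, the edgeR adjusted p was 0.0419, and 14 alternatives left it above 0.05, with values up to 0.226. Col5a1 rose by 0.40 ± 0.09 and Col18a1, a basement membrane collagen, fell by 0.32 ± 0.07, both without overlap. The summed level of the 12 fibroblast and pericyte markers was 1.48 to 8.07 CPM untreated and 6.85 to 14.8 CPM with TGFβ, carried by Col1a1, with 6 of the 12 at 0. In bulk RNA more cells of a type and more RNA per cell cannot be told apart.

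Among matrix glycoproteins and proteoglycans 10 of 22 rose and 3 fell (59.1%). Postn (periostin), a matricellular protein of wounds, was at 5.684, 6.941 and 11.61 CPM untreated and at 19.27, 28.65 and 34.48 CPM with TGFβ. The arms were apart and the rise was 1.84 ± 0.20 (edgeR adjusted p = 9.04e-09). The CCN family members Ccn2, Ccn4 and Ccn5 rose by 0.96 ± 0.12, 0.67 ± 0.07 and 1.12 ± 0.17, and Thbs1, which activates latent TGFβ, by 0.39 ± 0.06. Fn1 (fibronectin) rose by 0.26 ± 0.06, with adjusted p-values of 0.0073 pooled, 0.52 in mock and 0.021 in Nnmt-OE (edgeR). Vcan (versican) and Fbln2 (fibulin 2) were called only in the pooled test, at 0.53 ± 0.14 and 0.52 ± 0.15. Lamb3 was also called only there, with untreated libraries from 0 to 1.798 CPM and TGFβ libraries from 1.818 to 5.884 CPM. Abi3bp and Sned1, both matrix proteins, fell by 1.28 ± 0.16 and 1.19 ± 0.16, and Spp1 (osteopontin) fell by 0.26 ± 0.06.

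Of 18 proteases and inhibitors 5 rose and 1 fell (33.3%). Timp3 and Timp1, inhibitors of metalloproteinases, rose by 0.35 ± 0.06 and 0.54 ± 0.15, and Plaur, the urokinase receptor, by 0.70 ± 0.19. Plat, tissue plasminogen activator, was at 59.16, 68.86 and 81.83 CPM untreated and at 34.29, 43.36 and 55.59 CPM with TGFβ, and fell by 0.65 ± 0.12 (edgeR adjusted p = 0.000191). F3, tissue factor, rose by 0.43 ± 0.09 and was called only in the pooled test. Of 11 integrin genes (18.2% called), Itga1 fell by 0.55 ± 0.07 and Itgb1 rose by 0.20 ± 0.05. The Itgb1 call (edgeR adjusted p = 0.0223) was lost under 7 alternatives.

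YAP-TEAD targets, which report on cell tension and density, had 7 of 23 higher and 2 lower (39.1%), 5 of the 9 in neither construct alone. Those 5 were Tgfb2, F3, Dlc1 and Ajuba, which rose, and Ptpn14, which fell by 0.34 ± 0.07. Among 24 AP-1 and immediate-early genes 2 rose and 4 fell (25%). Egr1 fell by 0.62 ± 0.07, Klf4 by 0.59 ± 0.09 and Dusp6, a phosphatase of ERK, by 0.45 ± 0.08, while Ier3 and Ier5 rose by 0.31 and 0.24.

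Epithelial and renal genes fell where they changed, with 1 exception. Of 12 renal identity and transport genes 4 fell and none rose (33.3%), and 19 further listed genes were below the filter. Atp1b1, a subunit of the sodium pump, was at 695.7, 749.4 and 818.9 CPM untreated and at 425.1, 448.1 and 508.4 CPM with TGFβ, a fall by 0.73 ± 0.05 (edgeR adjusted p = 3.21e-13). The water channel Aqp1 fell by 0.60 ± 0.06 and the transcription factor Tfcp2l1 by 0.47 ± 0.07. Cdh16, kidney-specific cadherin, fell by 0.63 ± 0.09. It was the only 1 of 12 cadherins and transition factors called (8.33%, against 5.18% of all genes). Cdh2, N-cadherin, had a log2 change of 0.16 ± 0.08 that did not pass (edgeR adjusted p = 0.29). The exception was Krt8, the only 1 of 15 keratin and tight junction genes called (6.67%, near the 5.18% of all genes). It was at 52.76, 66.66 and 69.87 CPM untreated and 76.9, 83.84 and 90.86 CPM with TGFβ, without overlap, and the rise of 0.38 ± 0.09 passed only in the pooled test (edgeR adjusted p = 0.00707). The summed level of the 15 tubular markers was 1670 to 2080 CPM untreated and 1500 to 1680 CPM with TGFβ.

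Injury and inflammatory genes were split. Among 22 injury and repair genes 6 rose and 5 fell (50%). Havcr1 (KIM-1), the standard marker of tubular injury, rose from a median of 19.13 to 32.86 CPM, by 0.84 ± 0.15, and Cd44 and Csf1 rose by 0.28 ± 0.06 and 0.38 ± 0.06. The chemokines Cxcl10 and Ccl2 rose by 0.49 ± 0.12 and 0.40 ± 0.11 and were called only in the pooled test. Sox9, a factor of regenerating tubules, fell by 0.58 ± 0.12. In the complement and acute phase list 3 of 10 fell and none rose (30%): Cp (ceruloplasmin), C3 and Lbp, by 0.75 ± 0.06, 1.11 ± 0.18 and 1.05 ± 0.25. Of 13 clearance receptor and prostaglandin genes 5 fell (38.5%), among them the phagocytic receptor kinase Mertk by 1.54 ± 0.32, its ligand Gas6 by 0.35 ± 0.07, Ptgds by 1.14 ± 0.14, Ptgs1 by 0.91 ± 0.20 and the adenosine receptor Adora1 by 1.13 ± 0.22. All 5 were called in mock, and 1 of them, Ptgds, in Nnmt-OE. The difference between constructs was not called for any of them.

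Of 27 interferon and MHC class I genes (11.1% called), Isg15 rose by 0.58 ± 0.12, while H2-K1 and Ifit3 fell by 0.26 ± 0.07 and 0.57 ± 0.17, and the Ifit3 call (edgeR adjusted p = 0.0385) was lost under 10 alternatives. Leukocyte markers summed to 70.5 to 101 CPM untreated and 86.1 to 116 CPM with TGFβ, mostly Csf1r, and none of the 3 tested was called.

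Several targets of p53 fell in the pooled test. Of 26 tested 6 fell and none rose (23.1%), where mock alone called 0 and Nnmt-OE alone 2. Trp53inp1, Eda2r, Zmat3, Ccng1, Bbc3 and Btg2 fell by 0.48, 0.43, 0.26, 0.26, 0.36 and 0.28 on the log2 scale. Ccng1, cyclin G1, was at 346.2, 367.4 and 420.3 CPM untreated and at 288.8, 309.2 and 343.6 CPM with TGFβ, so the arms were apart by a narrow gap (edgeR adjusted p = 0.00752). The median over the 26 genes was -0.16, and 5 of 26 were positive. Of 36 cell cycle and replication genes only Ccnd1 was called (2.78%), with a fall by 0.30 ± 0.06, although 27 of the 36 log2 fold changes were positive.

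Calls in antioxidant and methyl metabolism ranged from large to small. Of 14 glutathione S-transferases 3 fell and 1 rose (28.6%). Gstm1 was at 725.1, 825.5 and 911.4 CPM untreated and at 335.4, 356.4 and 418.1 CPM with TGFβ, a fall by 1.18 ± 0.06 (edgeR adjusted p = 1.16e-17), and Gstm2 and Gstm7 fell by 0.95 ± 0.10 and 0.81 ± 0.21. Mu-class genes are close copies of each other, so the split of reads between them is uncertain. Gsto1, of the omega class, rose by 0.43 ± 0.08. Nfe2l2 encodes NRF2, the main activator of antioxidant genes, and was at 152.6, 169.1 and 209.4 CPM untreated and at 117.5, 131.6 and 140.4 CPM with TGFβ. It fell by 0.42 ± 0.08 in the pooled test (edgeR adjusted p = 0.000462), and the same value of -0.42 in mock and in Nnmt-OE missed the threshold at 0.051 and 0.052. Among 27 NRF2 and antioxidant genes 5 fell and 1 rose (22.2%), with Gpx3, Tkt, Fth1 and Srxn1 lower and thioredoxin (Txn1) higher by 0.32 ± 0.08.

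Among 19 genes of NAD and nicotinamide metabolism 2 fell (10.5%). Inmt, indolethylamine N-methyltransferase, was at 22, 26.91 and 40.86 CPM untreated and at 3.724, 5.489 and 10.08 CPM with TGFβ. It fell by 2.29 ± 0.21 on the log2 scale (edgeR adjusted p = 1.17e-10), by 2.28 in mock and 2.29 in Nnmt-OE. Nampt, the rate-limiting enzyme of NAD salvage, was at 106.9, 113.2 and 129.8 CPM untreated and at 74.54, 91.64 and 94.71 CPM with TGFβ. Its fall by 0.39 ± 0.08 passed only in the pooled test (edgeR adjusted p = 0.00267, against 0.094 in mock and 0.12 in Nnmt-OE). In serine, folate and methyl metabolism 3 of 27 rose (11.1%), Asns, Psat1 and Shmt2, by 0.40, 0.29 and 0.28. For Shmt2, 15 alternatives took the edgeR adjusted p from 0.0486 to above 0.05. Of 22 fatty acid oxidation genes 2 fell (9.09%), the coactivator Ppargc1a by 0.68 ± 0.10 and the thioesterase Acot2 by 0.60 ± 0.12. Cholesterol synthesis had 2 of 30 higher (6.67%, near the 5.18% of all genes), among them Hsd17b7, with 23 of 30 positive. The Hsd17b7 call was lost under 6 alternatives and the Psat1 call under 7.

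In other lists few genes passed. Of 27 glycolysis and hypoxia genes only Ndrg1 did (3.70%), with a fall by 0.73 ± 0.08. In the circadian list 3 of 20 were called (15%): Rora fell by 0.64 ± 0.09, and Csnk1e and Nfil3 rose by 0.38 ± 0.07 and 0.67 ± 0.19, the Nfil3 call being lost under 6 alternatives. Among 27 growth factor genes Pdgfb rose by 0.61 ± 0.07 and Nrp1, Vegfb and Tgfa fell (14.8%), with the Tgfa call lost under 4 alternatives. Of 21 Wnt and Notch genes Wnt9a rose and Notch1 fell (9.52%), and the Wnt9a call was lost under 6 alternatives. None of 25 unfolded protein response genes and none of the 7 mitochondrial transcripts of the list that were tested was called by edgeR. Outside that list mt-Rnr2 was called, 1 of 2 mitochondrial ribosomal RNAs tested. Its median was 27940 CPM untreated and 24740 CPM with TGFβ, with arms that overlapped.

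Over all 35 lists, 118 of 624 genes tested were called (18.9%), and 550 of the 668 calls lay outside them. Other genes with large changes included Fam198b, Cpne8, Cyp1b1, a cytochrome P450, and Siglecg, which rose by 1.41 ± 0.23, 1.37 ± 0.18, 1.30 ± 0.19 and 1.2 ± 0.17, and Sorbs2, an adaptor of stress fibres, by 1.00 ± 0.13. Scel, sciellin, fell by 1.81 ± 0.32, Agt, angiotensinogen, by 1.23 ± 0.24 and St8sia1, a sialyltransferase, by 1.10 ± 0.28. St8sia1 had no overlap within either construct and was still called only in the pooled test.

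Genes called in neither construct alone with the smallest pooled adjusted p were of mixed function. Rpl13a, a ribosomal protein, was at 97.25, 108.9 and 123.5 CPM untreated and at 134.8, 143.6 and 152.6 CPM with TGFβ, and rose by 0.40 ± 0.08 (edgeR adjusted p = 0.000812). Ribosomal protein genes have many processed copies, so their counts are uncertain. Gart, a purine synthesis enzyme, rose by 0.37 ± 0.07, Spcs3, a signal peptidase subunit, by 0.59 ± 0.11, Klf13 by 0.38 ± 0.08, Ugcg, glucosylceramide synthase, by 0.48 ± 0.10, the chaperone Hsph1 by 0.37 ± 0.08 and the secreted Ccdc80 by 0.25 ± 0.05. Sorl1, a sorting receptor, was at 66.46, 72.13 and 84.68 CPM untreated and at 47.91, 53.1 and 55.7 CPM with TGFβ, a fall by 0.48 ± 0.10 (edgeR adjusted p = 0.00111) with a fall of equal size in both constructs (-0.48 each). Sema5a, Bcam, Ypel2, Lhfpl2 and Proser2 fell by 0.32, 0.56, 0.59, 0.45 and 0.54. The arms did not overlap for Sorl1, Sema5a, Ypel2 and Lhfpl2 and did for Bcam and Proser2.

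**Figure D4:**
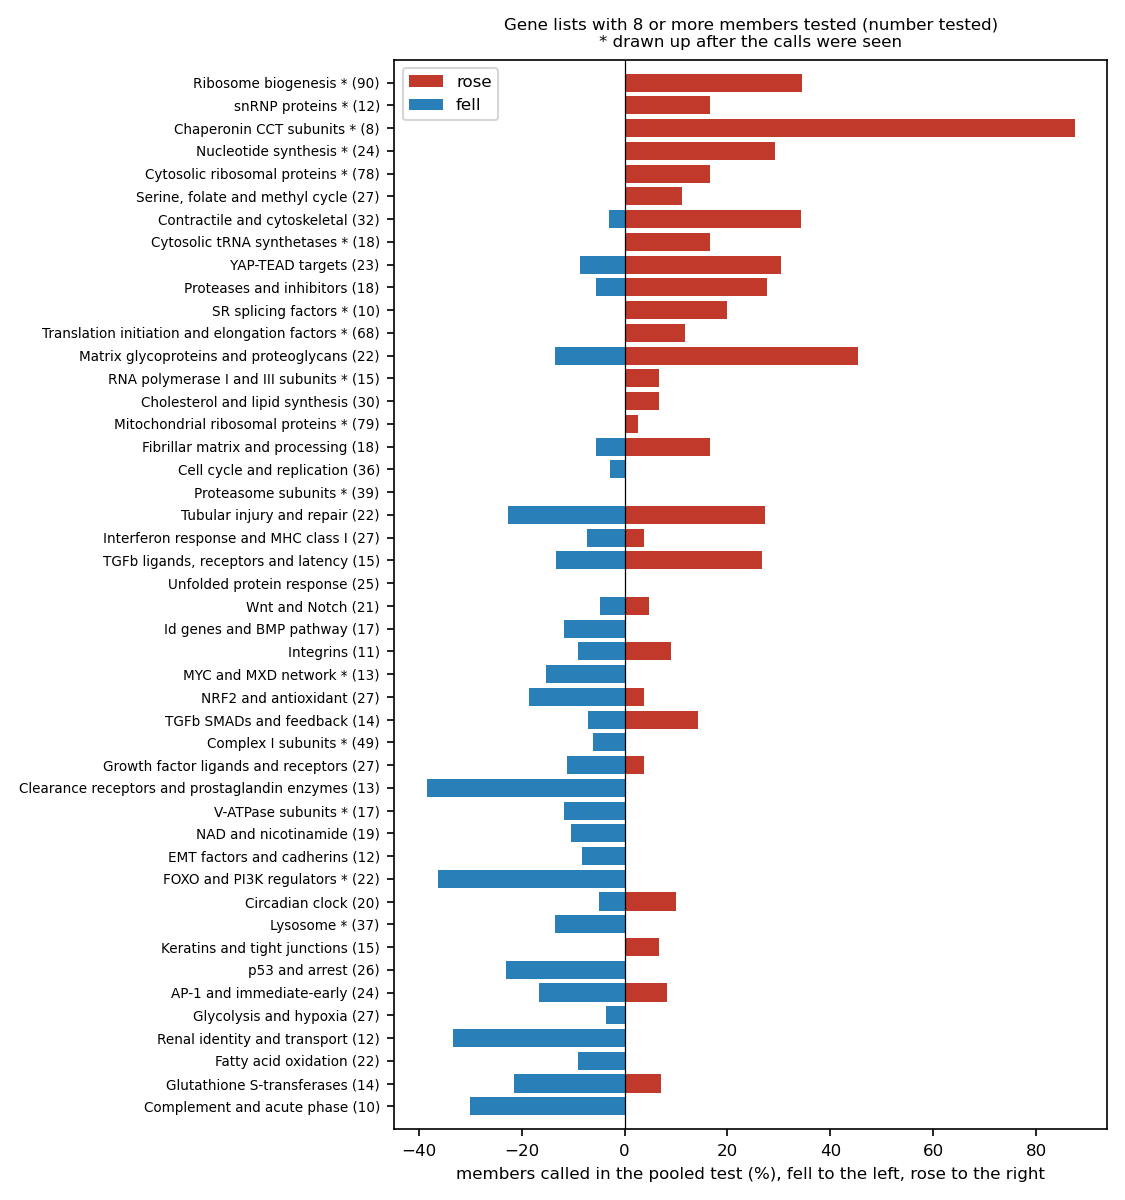
Share of tested members called in the pooled test (x axis, in percent), higher to the right and lower to the left, for the 46 lists with 8 or more members tested (y axis, number tested in brackets), ordered by their median log2 fold change. The background is 5.18% of all genes, not matched for level (14.2% of genes at 100 CPM or more). Lists with a star were drawn up after the calls were seen, and the others with earlier results of these data known.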

How the data were processed

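The deposited table holds raw counts of reads per gene for 12 libraries, with no molecular identifiers named in the labels. STAR and HTSeq are the tools named, and GRCh38, a human build, the genome, per the submitters' processing notes. The identifiers are mouse Ensembl ones. Which mouse build, annotation and strand setting the authors used is not given in the sources used here, so antisense or overlapping genes are uncertain. Rows that total unassigned reads did not enter library sizes or tests. Symbols came from GENCODE M21 names (55141 of 55487 identifiers, 99.4%).

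Counts were fitted in edgeR 4.0.16 (R 4.3.3): filterByExpr (minimum count 10, total 15) kept 12897 genes and removed 42590, libraries were scaled by TMM (0.981 to 1.011), and the robust quasi-likelihood F test was adjusted by Benjamini-Hochberg over all genes tested, at 0.05. The pooled fit had terms for construct and TGFβ (9 residual degrees of freedom), and a fit of 4 group means (8) gave TGFβ in each construct and the interaction. The test was checked on simulated counts. CPM use the TMM-scaled library sizes, and errors of log2 fold changes are standard errors of the fit.

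Alternatives were DESeq2 1.42.0, limma-voom 3.58.1, scaling by RLE or by library totals, no filter or a stricter one, no construct term, the mean of both contrasts, a replicate block, a test against 1.2-fold and each library left out. Leaving out 3 outlying libraries together was an alternative chosen after seeing the data.

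Members and lists were chosen with earlier results of these data known, and 17 further lists were drawn up after the calls were seen. Lists are described by counts, with no set test. Named genes were Nnmt, the 12 greatest rises and falls at 10 CPM or more with no overlap within either construct, the 10 rises and 10 falls of smallest adjusted p called in neither construct alone, up to 4 members of each list, and 5 genes called in a construct and not pooled. A few genes that this rule covers are not reported here. Acta1, Filip1l and further list members were named after their values were seen. Promoters and their positions are from RefSeq (GRCm38.p6), independently of the count table's build.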

Additional observations from a re-analysis of the deposited data

Results flagged for a closer look

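In 4 of 88 sets of 6 libraries (44 genes, both arms), 1 library lay farther from the others than Dixon's 95% limit allows. Chance flags about 1 set in 20. Siglecg was at 18.66 CPM in mock replicate 2, with the nearest untreated library at 13.56 CPM. Tgfb2 was at 226.7 CPM in mock with TGFβ replicate 1, with the next at 251.2 CPM. Ccdc80 was at 1214 CPM in Nnmt-OE replicate 2, with the next untreated library at 1077 CPM. Sema5a was at 357.1 CPM in mock with TGFβ replicate 3, the next being 314.8 CPM. In each case the library lay toward the other arm.

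Arntl stood out for a difference between constructs: every mock library with TGFβ was above every mock library without it, and every Nnmt-OE library with TGFβ was below every untreated Nnmt-OE library. The difference of the log2 fold changes was -1.64, with an unadjusted interaction p of 0.00037 and an edgeR adjusted p of 0.999, so it did not pass over all genes. The mock library with the highest level, replicate 3 with TGFβ at 30.23 CPM, is among the 3 that stand apart. The part of that library in the difference was not tested.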

How the results depend on the processing

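The pooled count of 668 was between 628 and 839 under RLE scaling (666), library totals (653, of which 46.6% were higher against 49.6%), DESeq2 (839), limma-voom (667), no filter (737), a stricter filter (657), no construct term (628) and the mean of both contrasts (655). A test against 1.2-fold left 96 genes, and 37 in place of 415 called in neither construct alone. By DESeq2 the count in mock was 306 in place of 184 and in Nnmt-OE 295 in place of 180. With 1 library left out the pooled count was 496 to 704 (lowest without Nnmt-OE replicate 3), the count in neither construct alone 317 to 469, mock 98 to 188 and Nnmt-OE 97 to 305, and the interaction count stayed at 0. Without the 3 libraries that stand apart these were 732, 422, 168, 260 and 0. For the named genes, 2884 recomputed values kept direction and side of the threshold, 148 no longer passed, 22 newly passed and 2 changed sign: Cd68 (-0.12), 0.04 without Nnmt-OE replicate 3 within a range from -0.25 to 0.04, and Csf1r (0.13), -0.03 without the 3 libraries, neither of them called. The cause was not tested.

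The replicate numbers were checked as a possible pairing. Deviations of same-numbered libraries correlated between -0.206 and 0.153 over 18 pairs, and 5 of 12 libraries correlated best with their own number. No pairing by number was thus detected, though a check with 3 libraries a group cannot exclude one. With a replicate block 652 genes passed in the pooled test, 636 of them among the 668, and 416 in neither construct alone, 170 in mock, 168 in Nnmt-OE and 0 for the interaction. Precision is limited by 3 libraries a group and by counts of reads without molecular identifiers, and genes under 3 CPM were called in 0.635% of cases.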

Other observations

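All members called in the ribosome biogenesis and nucleotide synthesis groups rose with TGFβ, though most members were not called. The groups in these paragraphs were drawn up after the calls were seen, so their counts are descriptions with no test. Nor were the groups matched for level, and of all genes at 100 CPM or more 14.2% were called. Of 90 ribosome biogenesis genes 31 rose and none fell (34.4%, against 5.18% of all genes), 18 of them called in neither construct alone, and 83 of 90 were positive with a median log2 change of 0.26. Ncl (nucleolin), the nucleolar protein that opens ribosomal chromatin, was at 1171, 1238 and 1292 CPM (lowest, median and highest) untreated and at 1608, 1620 and 1664 CPM with TGFβ, a rise by 0.40 ± 0.05 (edgeR adjusted p = 1.47e-07) with no overlap. Npm1 (nucleophosmin) was at 196.8, 221.9 and 269.9 CPM untreated and at 247.3, 312.6 and 339.2 CPM with TGFβ, with arms that overlapped and a rise by 0.44 ± 0.08 (edgeR adjusted p = 0.000196). Ddx21, Lyar, Rcl1 and Dkc1 rose by 0.47, 0.50, 0.55 and 0.41. Of 24 nucleotide synthesis genes 7 rose and none fell (29.2%), among them Impdh1 by 0.73 ± 0.14, Cad by 0.50 ± 0.09 and Umps by 0.42 ± 0.10. Of the 8 subunits of the chaperonin CCT, which folds actin and tubulin, 7 rose by 0.24 to 0.30, 5 of them in neither construct alone, and Cct4 was at 0.23 ± 0.09 (edgeR adjusted p = 0.176). Of 78 cytosolic ribosomal protein genes 13 rose and none fell (16.7%), 73 of 78 were positive, and the median was 0.22, with the reservation that copies of these genes share reads. Eukaryotic initiation and elongation factors had 8 of 68 higher (11.8%), mitochondrial ribosomal proteins 2 of 79 (2.53%) and proteasome subunits 0 of 39 by edgeR.

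Among lysosomal genes and regulators of FOXO, PI3K and MYC, the members called fell, with Ctsw as an exception among the cathepsins. Of 37 lysosome genes 5 fell and none rose (13.5%): Grn, Tpp1, Laptm4b, Laptm4a and Lamp1, by 0.35, 0.36, 0.36, 0.19 and 0.20. The cathepsin Ctsd fell by 0.37 ± 0.05, while Ctsw was at 0 to 1.421 CPM untreated and 2.298 to 5.289 CPM with TGFβ. Of 22 FOXO and PI3K regulators 8 fell and none rose (36.4%), among them Pdcd4 by 0.63 ± 0.09, Foxo3 by 0.37 ± 0.10 and Deptor, an inhibitor of mTOR, by 0.73 ± 0.22. In the MYC and MXD network Mxd4, which competes with MYC for MAX, was at 272.5, 277.9 and 304.8 CPM untreated and at 145, 165.2 and 178.5 CPM with TGFβ, and fell by 0.80 ± 0.07 (edgeR adjusted p = 1.52e-11). Txnip fell by 0.60 ± 0.08, and these were the 2 called of 13 (15.4%).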
